A study of Equus caballus with 20 samples.

Results

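MicroRNAs (miRNAs) carried by extracellular vesicles were compared between follicular fluid of preovulatory follicles, 30 to 35 mm in diameter, and of postdeviation follicles, 26 to 29 mm in diameter, of mares. The comparison used 8 of the 20 libraries of the study, 4 per stage, and the 219 of 686 listed miRNAs that were above 0 in at least 4 of these 8 libraries. All samples came from 19 mares of 1 breed, 8 to 14 years old and with a normal reproductive tract, in the ovulatory season, and no treatment or genotype distinguishes the stages. In every mare, follicles of 6 mm or more had been ablated at day 10 or 11 of the cycle to start a new wave, and a follicle was aspirated after at least 3 days of continuous growth. Vesicles were pelleted from 2 ml of fluid at 120000 xg for 70 min, which also brings down other small particles of the fluid. The other 3 stages, predeviation, deviation and impending ovulation, entered the estimate of the spread and a description of levels.

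Deviation is the point in a follicular wave at which the future dominant follicle goes on growing while its neighbours regress. Between deviation and ovulation the granulosa cells of the dominant follicle gain receptors for luteinizing hormone (LH), produce estradiol and then prepare to luteinize. Vesicles in the fluid come from granulosa, theca, cumulus and blood-derived sources. A miRNA lowers the output of messenger RNAs that match its seed, the short stretch near its 5′ end, and miRNAs with one seed form a family.

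Vesicles of preovulatory follicles had lower values than those of postdeviation follicles for miR-192, miR-215, miR-27a and miR-24, which are among the most abundant of the vesicles. They had higher values for miR-101, miR-148b-3p, miR-98 and miR-125b-5p. In each of these 8 miRNAs the 4 preovulatory libraries lay entirely to one side of the 4 postdeviation libraries, as in 19 of the 219 tested (8.68%). None of the 219 miRNAs passed the threshold, an adjusted p under 0.05 in limma's test, and the smallest adjusted p was 0.306. Values are given in scaled reads, the deposited read counts multiplied by a factor per library, and fold changes are preovulatory minus postdeviation on the log2(scaled reads + 1) scale. These are relative amounts within a library, so fewer vesicles of a source and less miRNA per vesicle cannot be told apart.

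The share of miRNAs called was 0.0% in limma. At an unadjusted p under 0.05 there were 28 miRNAs, 12.8% of those tested, with 20 fitted higher in preovulatory vesicles (9.13%) and 8 fitted lower (3.65%). EdgeR's quasi-likelihood test on the recovered reads also called 0 and had 24 at an unadjusted p under 0.05, of which 14 were higher (6.39%) and 10 lower (4.57%). DESeq2 called 0 and had 33, of which 22 were higher (10.0%) and 11 lower (5.02%), with a smallest adjusted p of 0.0701. In 19 miRNAs (8.68%) the stages did not overlap, with all preovulatory libraries above in 13 (5.94%) and all below in 6 (2.74%). The fitted value was higher in preovulatory vesicles for 128 miRNAs and lower for 91, with a median log2 fold change of 0.22. This median depends on the scaling. It was -0.03 after quantile normalization, which fitted 105 miRNAs higher and turned the split at an unadjusted p under 0.05 to 9 higher and 15 lower. With libraries brought to equal totals it was 0.27, and the split was 21 higher and 5 lower.

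The width of the intervals set what could be seen. Around a log2 fold change, the 95% interval reached 2.22 to either side in the median of the 219 miRNAs. This reach was 0.85 for the 57 miRNAs with a mean of at least 1000 scaled reads, and 3.46 for the 84 with a mean under 100. Of the 57 abundant miRNAs, 13 had an unadjusted p under 0.05, with 8 higher and 5 lower, beside 28 of all 219 tested (12.8%).

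**Figure D1:**
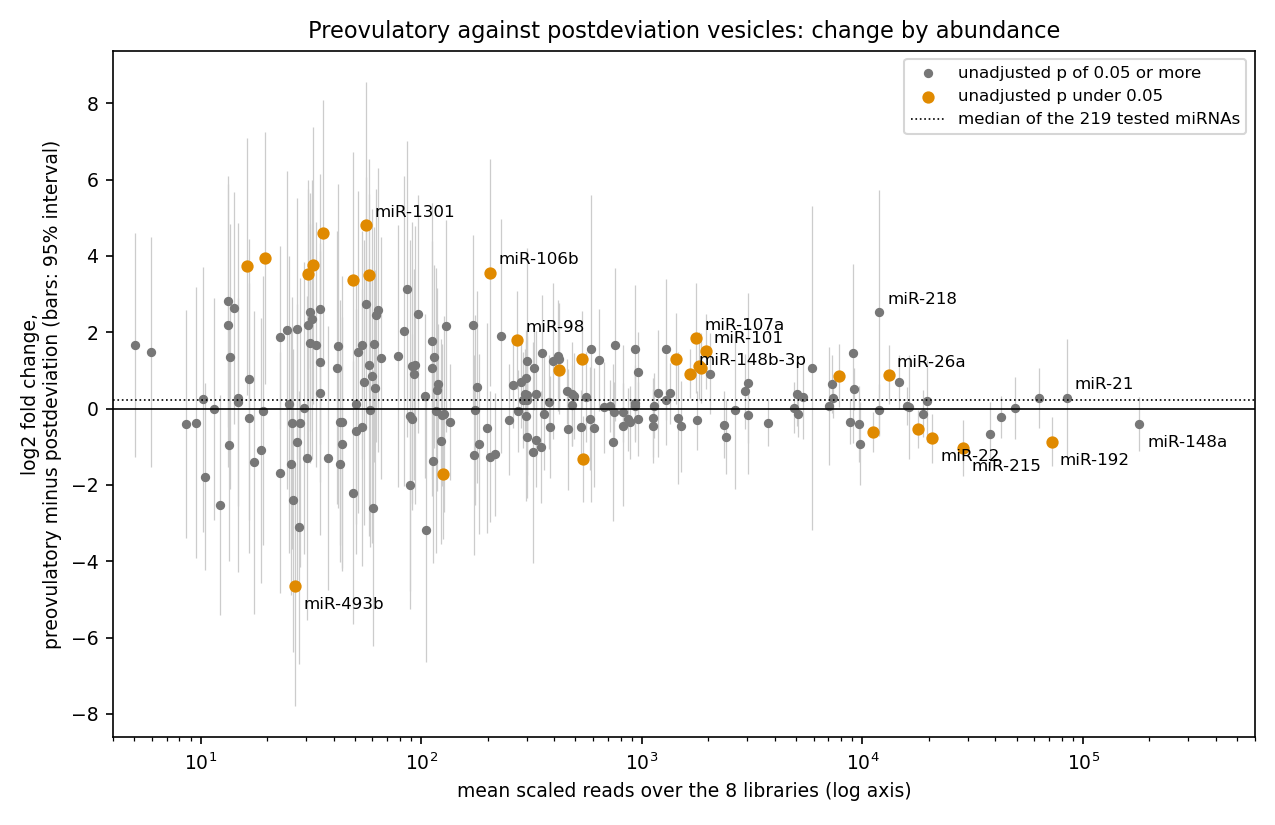
Log2 fold change (preovulatory minus postdeviation, vertical axis) of the 219 tested miRNAs against their mean scaled reads over the 8 libraries (horizontal log axis), with 95% intervals as bars, orange points for an unadjusted p under 0.05 and a dotted line at the median of 0.22. Intervals narrow to the right, where miR-192, miR-215 and miR-22 lie below 0, while the largest fold changes, such as 4.80 for miR-1301 and -4.64 for miR-493b, belong to scarce miRNAs with wide intervals.

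Libraries held 105466, 65120, 27131 and 110062 reads in preovulatory 1 to 4, and between 55118 and 89957 in the postdeviation libraries, 567861 in all. MiRNAs above 0 numbered 180 to 264 per preovulatory and 188 to 212 per postdeviation library. At a common depth of 27131 reads these ranges were 168 to 218 and 166 to 187. The highest numbers at this depth were 212 in preovulatory 1 and 218 in preovulatory 4. The 10 most abundant miRNAs held 65.4% ± 3.15 of the values in preovulatory and 69.9% ± 1.92 in postdeviation libraries (SD, n = 4 each, exact two-sided permutation p = 0.0571, adjusted over 4 measures 0.229). The smallest p that 4 against 4 libraries allow is 0.0286. Reads, their scaled sum and the number of miRNAs above 0 each had an adjusted exact permutation p of 0.657. Correlations of log2 values between libraries had a median of 0.80 within each stage (6 pairs each) and of 0.80 between the stages (16 pairs). No pair matched within counting noise, with a smallest chi-square per degree of freedom of 19.7.

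Preovulatory libraries 1 and 4 stood apart from preovulatory 2 and 3, and had the highest correlation of any pair within a stage (0.91). Both were also close to postdeviation 1, with correlations of 0.84 for preovulatory 1 and 0.89 for preovulatory 4. Preovulatory 1 had correlations of 0.75 and 0.76 with preovulatory 2 and 3, and preovulatory 4 of 0.80 and 0.81. MiR-218, a miRNA of motor neurons that lies in SLIT gene introns, had 50254, 397, 475 and 33875 scaled reads in preovulatory 1 to 4, against 8030, 106, 181 and 1900 in postdeviation 1 to 4. MiR-7, abundant in brain and pancreatic islets, had 32836, 1146, 1387 and 22635, against 5972, 529, 939 and 7294. Libraries 1 and 4 are at least 3-fold above every other library of these stages in both miRNAs, and libraries 2 and 3 lie inside the postdeviation range. Of the 219 tested miRNAs, 35 had both libraries above the other 6 and 16 had both below. For each named miRNA in which both libraries lay outside the other 6, the log2 fold change is given below with and without them. Without both, limma still called 0, with 18 miRNAs at an unadjusted p under 0.05 (8 higher, 10 lower), a smallest adjusted p of 0.474 and a median log2 fold change of 0.12.

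The most abundant miRNAs with all preovulatory libraries below all postdeviation libraries were miR-192 and miR-215, a pair with one seed and with high levels in the gut, liver and kidney of other mammals. The level of miR-192 was 40377, 49488, 48113 and 67517 scaled reads in preovulatory libraries 1 to 4, against 94130, 99665, 94720 and 82147 in postdeviation libraries 1 to 4. The 4 preovulatory libraries all lay below the lowest postdeviation library, and preovulatory 4 was nearest to it. The means were 51373 ± 11485 and 92666 ± 7439 (SD, n = 4 each), a log2 fold change of -0.87 ± 0.31 (SE, limma adjusted p = 0.315). MiR-192 made up 5.86% ± 1.92 of the values in preovulatory and 10.0% ± 1.36 in postdeviation libraries.

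MiR-215 had 12999, 22179, 20187 and 20411 scaled reads in preovulatory vesicles, against 39589, 35979, 43103 and 34479 in postdeviation vesicles. The stages did not overlap, with means of 18944 ± 4062 and 38287 ± 3861 and a log2 fold change of -1.04 ± 0.35 (limma adjusted p = 0.306). Without preovulatory 1 and 4 the log2 fold change was -0.92 for miR-192 and -0.85 for miR-215, with an adjusted p of 0.474 for both.

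All 4 tested members of the liver, gut and plasma list were fitted lower. The 2 at an unadjusted p under 0.05 were miR-192 and miR-215 themselves, and 0 passed the threshold. Over all 219 tested miRNAs, 91 were fitted lower and 3.65% were lower at an unadjusted p under 0.05. MiR-194, transcribed next to these miRNAs in human and mouse, had 123, 191, 256 and 401 scaled reads against 374, 561, 527 and 358. Preovulatory 1, 2 and 3 lay below all of postdeviation, and preovulatory 4 lay above 2 of them (log2 -1.01 ± 0.70, limma adjusted p = 0.547). The liver miRNA miR-122 had 6667, 9392, 8615 and 6391 against 11700, 6940, 6423 and 20877, and the stages overlapped (log2 -0.41 ± 0.48, adjusted p = 0.783). The summed level of the list was between 60165 and 94719 in preovulatory and between 137861 and 145793 in postdeviation libraries, and most of it was miR-192 and miR-215. The list's median log2 fold change was -0.94, beside 0.22 over all tested miRNAs. Both arms of miR-885, a further liver miRNA, were listed at 0 in all 8 libraries.

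MiR-22, reported to target the estrogen receptor alpha mRNA in human cells, had 7369, 19563, 20807 and 14935 scaled reads in preovulatory vesicles, against 18219, 36582, 25117 and 23296 in postdeviation vesicles. The stages overlapped through preovulatory 2 and 3, which lay above postdeviation 1. The log2 fold change was -0.78 ± 0.31 (limma adjusted p = 0.315), and it was -0.45 without preovulatory 1 and -0.31 without preovulatory 1 and 4.

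MiR-27a and miR-24 are processed from one primary transcript with miR-23a in mammals. MiR-27a had 7034, 9377, 9491 and 9340 scaled reads in preovulatory vesicles, against 10923, 15509, 13011 and 14874 in postdeviation vesicles (log2 -0.62 ± 0.26, limma adjusted p = 0.315). MiR-24 had 12026, 16756, 16098 and 13865, against 18276, 23686, 21642 and 20698 (log2 -0.53 ± 0.24, limma adjusted p = 0.383). Neither miRNA overlapped between the stages, and preovulatory 1 and 4 were the lowest libraries of both. Without these libraries the log2 fold change was -0.51 for miR-27a and -0.35 for miR-24. MiR-23a had 720 to 978 scaled reads against 667 to 1324 and did overlap (log2 -0.27, adjusted p = 0.855). The paralogous miR-23b was fitted higher, with 409, 147, 219 and 260 against 28.8, 63.5, 16.5 and 233 (a fitted 4.59-fold, adjusted p = 0.416), and its log2 fold change without preovulatory 1 and 4 was 1.77. Over the 5 tested members of these clusters, 2 were fitted higher and 3 lower. At an unadjusted p under 0.05 were 2 of the 5, both lower, beside 3.65% lower over all tested miRNAs. The sums over the clusters did not overlap, at 36569 to 45046 in preovulatory and 45676 to 58068 in postdeviation libraries.

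The other lower miRNAs among the 10 with the smallest p were scarcer. MiR-495 of the DLK1-DIO3 cluster had 515, 206, 183 and 303 scaled reads, against 374, 1396, 824 and 538 (log2 -1.32 ± 0.54, limma adjusted p = 0.315). MiR-1468 had 36.5 to 84.5 against 108 to 288 without overlap (log2 -1.71 ± 0.82, adjusted p = 0.388). MiR-493b, of the DLK1-DIO3 cluster, rested on 2 reads in preovulatory against 14 in postdeviation libraries, with reads in 1 and in 4 libraries. With the deposited library factors it was 8.98-fold lower (95% counting interval 2.06 to 81.4, limma adjusted p = 0.306). MiR-329a of the same cluster had 19 reads against 52 (log2 -3.17 ± 1.67, adjusted p = 0.420), with -5.20 without preovulatory 1 and 4 and -1.84 without preovulatory 3, its library at 0. MiR-3959 had 2 reads against 5, a ratio of 3.21-fold lower with a counting interval from 0.525 to 33.7 that includes no difference even for counting error alone. Counting intervals leave out the spread between libraries, so no difference between stages is read from any of them.

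**Figure D2:**
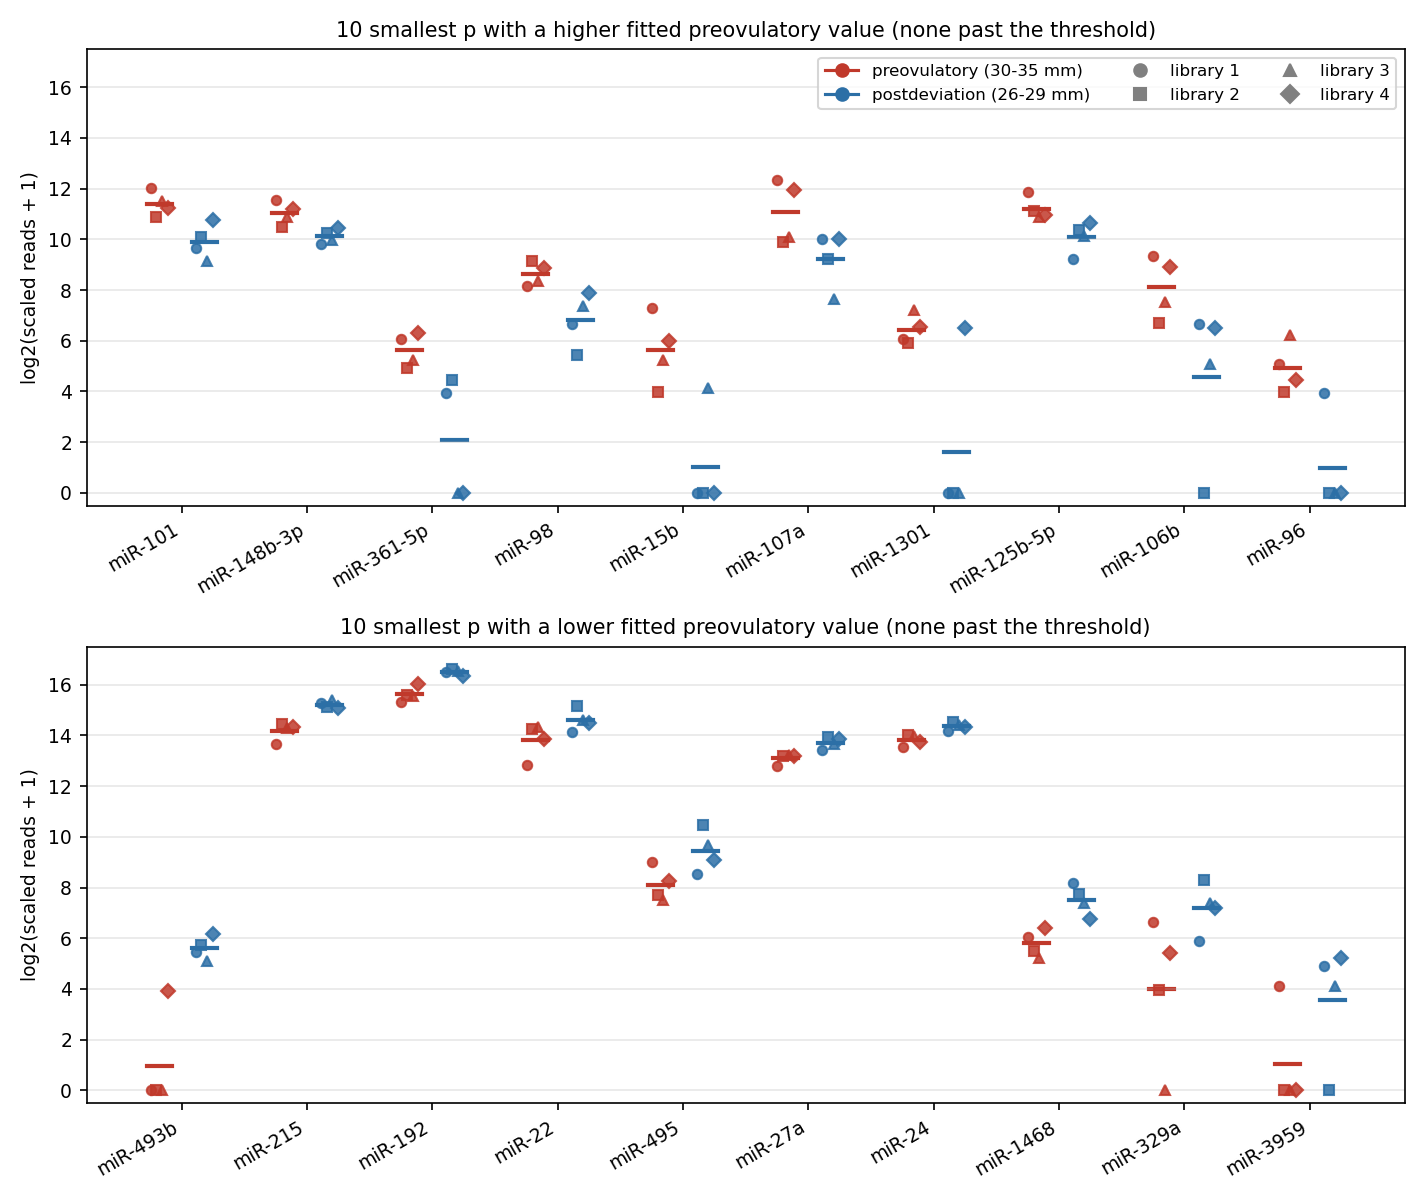
Scaled reads on the log2(scaled reads + 1) scale of the 10 miRNAs with the smallest p that were fitted higher (top) and of the 10 fitted lower (bottom) in preovulatory vesicles, as points for each library (preovulatory red on the left, postdeviation blue on the right, symbols for libraries 1 to 4) and bars for the means. MiR-192 and miR-215 show tight stages that do not overlap, while miR-15b, miR-1301, miR-96 and miR-493b are set by libraries at 0.

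MiR-101, which targets the histone methyltransferase EZH2 in human cells, had the smallest p of all. It had 4126, 1896, 2957 and 2386 scaled reads in preovulatory vesicles, against 806, 1100, 560 and 1720 in postdeviation vesicles. The stages did not overlap, and preovulatory 2 was close to postdeviation 4. The means were 2841 ± 960 and 1047 ± 501 (SD, n = 4 each), a log2 fold change of 1.50 ± 0.47 (limma adjusted p = 0.306), and 1.30 without preovulatory 1 and 4.

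MiR-148b-3p shares its seed with miR-148a, the most abundant miRNA of these vesicles. MiR-148b-3p itself had 3015, 1440, 1898 and 2372 scaled reads in preovulatory vesicles, against 907, 1227, 1005 and 1380 in postdeviation vesicles, without overlap (log2 0.92 ± 0.31, limma adjusted p = 0.306). Preovulatory 1 and 4 were its highest libraries, and without them the log2 fold change was 0.57. It was 0.43 after quantile normalization. MiR-148a itself had 188836, 145935, 139410 and 137680, against 185728, 179431, 292428 and 167125 (log2 -0.41 ± 0.34, adjusted p = 0.649). It made up 17.3% ± 3.47 of preovulatory and 22.2% ± 5.94 of postdeviation values, and preovulatory 1 lay within the postdeviation range.

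The let-7 family, which restrains growth and is abundant in differentiated tissue, had 6 of 7 tested members fitted higher. At an unadjusted p under 0.05 there were 3, all higher, and 0 passed the threshold. Over all tested miRNAs, 128 of 219 were fitted higher and 9.13% were higher at an unadjusted p under 0.05. MiR-98 had 286, 559, 329 and 465 scaled reads in preovulatory vesicles, against 101, 42.3, 165 and 233 in postdeviation vesicles. The stages did not overlap (log2 1.79 ± 0.62, limma adjusted p = 0.306), and the log2 fold change was 1.91 without preovulatory 1 and 4. Let-7f had 8513, 10377, 13324 and 7587 against 4878, 6199, 3245 and 8548 (log2 0.85 ± 0.40, adjusted p = 0.383). Let-7e had 598 to 803 against 65.9 to 771 (log2 1.29 ± 0.61, adjusted p = 0.388), and its log2 fold change was 0.60 without postdeviation 3. Let-7g, the most abundant of the named members, had 21577, 11935, 20187 and 18257 against 8922, 12917, 7494 and 16146 (log2 0.69 ± 0.34, adjusted p = 0.413). Postdeviation 4 lay within the preovulatory range in each of let-7e, let-7f and let-7g. The summed level of the family was 44594 to 59611 in preovulatory and 27752 to 48636 in postdeviation libraries. The median log2 fold change of its members was 0.69, and 0.61 without preovulatory 1 and 4.

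MiR-125b-5p is the mammalian relative of the worm developmental timing miRNA lin-4. It had 3726, 2234, 1898 and 1985 scaled reads in preovulatory vesicles, against 590, 1333, 1136 and 1595 in postdeviation vesicles, without overlap (log2 1.11 ± 0.43, limma adjusted p = 0.315; 0.73 after quantile normalization). MiR-99b had 3064, 1617, 2811 and 2259 against 720, 1396, 774 and 2168 (log2 1.05 ± 0.44, adjusted p = 0.315; 0.57 after quantile normalization). The abundant miR-99a had 125109, 55734, 44791 and 60859 against 48943, 61887, 55422 and 53582, and its high value was that of preovulatory 1 (log2 0.27 ± 0.38, adjusted p = 0.824; -0.13 without preovulatory 1 and 4). Of the 6 tested members of the miR-99-100-125 group, 5 were fitted higher and 1 lower, with a median of 0.29. At an unadjusted p under 0.05 were 2 of the 6, both higher, beside 9.13% higher over all tested miRNAs.

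In the miR-15, miR-16, miR-103 and miR-107 families, whose miR-15 and miR-16 lower cyclins and BCL2 in human cells, 7 of 7 tested members were fitted higher. At an unadjusted p under 0.05 were 2 of them. The shares over all tested miRNAs were 128 of 219 fitted higher and 9.13% higher at an unadjusted p under 0.05. MiR-107a had 5204, 955, 1095 and 3941 scaled reads in preovulatory vesicles, against 1036, 603, 198 and 1021 in postdeviation vesicles (log2 1.85 ± 0.69, limma adjusted p = 0.315). Its highest values were those of preovulatory 1 and 4, and without them the log2 fold change was 0.78. MiR-16 had 449, 500, 840 and 289 against 187, 148, 132 and 269, without overlap (log2 1.44 ± 0.74, adjusted p = 0.416). MiR-15b had 30 reads in 4 preovulatory libraries against 1 read in 1 postdeviation library, or 23.4 times as many with the deposited library factors (95% counting interval of the ratio 3.89 to 954, adjusted p in limma 0.315) and 25.4 times at equal total reads. MiR-15b had 155, 14.7, 36.5 and 63.3 scaled reads in preovulatory 1 to 4, and most of its reads were in preovulatory 1 and 4. The 14.7 and 36.5 are the values of 1 read in preovulatory 2 and 3. Its fitted log2 fold change was 4.59. Without preovulatory 1 and 4 it was 3.57, on too few reads to read a difference from. MiR-497 rested on 3 reads against 1, too few to read a difference from. The median over the families was 1.66, and 1.10 without preovulatory 1 and 4, where 6 of 7 were fitted higher.

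MiR-26a, another miRNA that targets EZH2, had 11822, 22929, 21099 and 11416 scaled reads in preovulatory vesicles, against 5080, 13139, 6423 and 13189 in postdeviation vesicles. Preovulatory 2 and 3 were above all of postdeviation, and preovulatory 1 and 4 within its range (log2 0.88 ± 0.37, limma adjusted p = 0.315). Without preovulatory 1 and 4 the log2 fold change was 1.34 with an adjusted p of 0.474. Beside the counts of the next 2 lists stand 128 of 219 tested miRNAs fitted higher and 9.13% higher at an unadjusted p under 0.05. In the miR-26 and miR-29 families 3 of 4 tested members were fitted higher, with 1 at an unadjusted p under 0.05. MiR-29a had 426 to 1168 against 806 to 1093 (log2 -0.28), miR-29b 14 reads against 4, and miR-29c 5 against 2 (ratio 1.95, counting interval 0.319 to 20.5). In the miR-30 family, 4 of 4 were fitted higher and 1 was at an unadjusted p under 0.05. That one was miR-30e, with 2214, 1631, 2117 and 1640 against 561, 1026, 313 and 1864 (log2 1.30 ± 0.58, limma adjusted p = 0.358). MiR-30d had 7404 to 9929 against 4130 to 8835 (log2 0.64 ± 0.37, adjusted p = 0.442), miR-30b a log2 fold change of 0.71, and miR-30c of 0.08 that was -0.51 without preovulatory 1 and 4.

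The miR-17-92 cluster and its paralogs, which promote proliferation, had 10 of 10 tested members fitted higher, beside 128 of 219 over all tested miRNAs. Of the 10, 1 was at an unadjusted p under 0.05, beside 9.13% higher over all, and the median was 1.33. MiR-106b had 645, 103, 183 and 486 scaled reads in preovulatory vesicles, against 101, 0, 32.9 and 89.6 in postdeviation vesicles, without overlap (log2 3.56 ± 1.43, limma adjusted p = 0.315). Leaving out postdeviation 2, its library at 0, gave 2.04, and leaving out preovulatory 1 and 4 gave 2.55. MiR-93, from the same host gene intron, had 3195, 206, 292 and 2358 against 604, 84.6, 313 and 376 (log2 1.55 ± 0.81, adjusted p = 0.420). MiR-17 had 2786, 103, 183 and 1971 against 619, 63.5, 198 and 125 (log2 1.68 ± 0.96, adjusted p = 0.442). The values of miR-93 and miR-17 were high in preovulatory 1 and 4, while preovulatory 2 and 3 lay in the postdeviation range. Without preovulatory 1 and 4 the log2 fold changes turned to -0.19 and -0.37, the median of the list to -0.18, and 4 of 10 members were fitted higher. MiR-92b did not overlap, with 384, 412, 1132 and 521 against 245, 180, 313 and 179 (log2 1.31 ± 0.70, adjusted p = 0.432), and had 1.61 without those libraries. The abundant miR-92a did not overlap either, with 7386, 7805, 7301 and 9628 against 6778, 6506, 6736 and 6487, but its difference was small (log2 0.27 ± 0.25, adjusted p = 0.700). MiR-19b was the fourth without overlap, with 106 to 235 against 42.3 to 86.3 (log2 1.36 ± 1.15, adjusted p = 0.660). Over all 219 tested miRNAs, 13 (5.94%) had all preovulatory libraries above all postdeviation libraries. The summed level of the list was 29175, 13625, 12484 and 27104 in preovulatory 1 to 4, against 10680 to 15672 in postdeviation libraries.

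**Figure D3:**
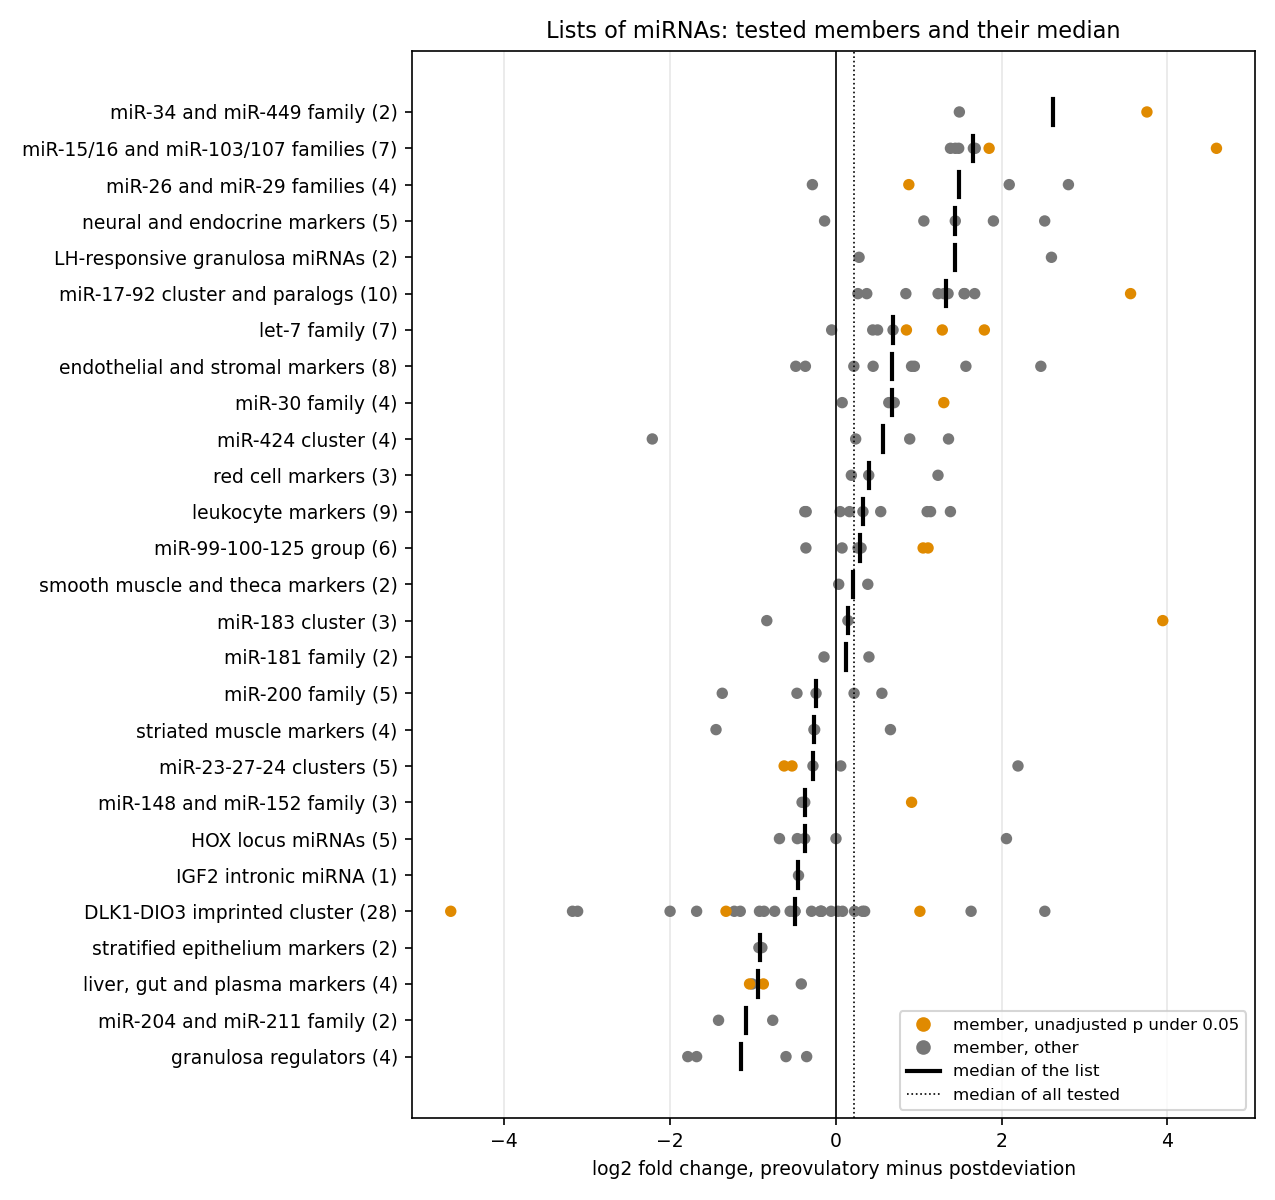
Log2 fold change (preovulatory minus postdeviation) of each tested member of 27 lists of miRNAs, with the number of tested members in brackets, orange points for an unadjusted p under 0.05, black bars for the median of a list and a dotted line at the median of all tested miRNAs, 0.22. The miR-15, miR-16, miR-103 and miR-107 families (median 1.66) lie wholly to the right of 0 and the liver, gut and plasma list (median -0.94) wholly to the left, with 0 members past the threshold in any list. Other lists also lie wholly to a side, such as miR-17-92 and paralogs (median 1.33) to the right and the granulosa regulators (median -1.14) to the left.

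The DLK1-DIO3 cluster, an imprinted group of miRNAs expressed in development, had 28 tested members of 52 listed, of which 8 were fitted higher and 20 lower. Over all 219 tested miRNAs, 128 were fitted higher and 91 lower. In the cluster, 1 was higher and 2 were lower at an unadjusted p under 0.05, beside 9.13% and 3.65% of all tested miRNAs. The median of the cluster was -0.49, beside 0.22 over all tested miRNAs. Its members differed in sign. MiR-379 was fitted higher, with 539, 647, 548 and 493 scaled reads in preovulatory vesicles against 201, 391, 264 and 269 in postdeviation vesicles, and did not overlap (log2 1.02 ± 0.47, limma adjusted p = 0.383). The 2 lower members at an unadjusted p under 0.05 were miR-495 and miR-493b, given above. The summed level was 15076 to 22150 in preovulatory and 16953 to 43399 in postdeviation libraries.

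Several miRNAs were close to the limit of detection in postdeviation vesicles. MiR-361-5p had 22 reads in 4 preovulatory libraries against 3 reads in 2 postdeviation libraries, or 5.72 times as many with the deposited library factors (counting interval of the ratio 1.72 to 29.8, adjusted p in limma 0.306) and 6.20 times at equal total reads. Its fitted log2 fold change was 3.52, and 2.97 without preovulatory 1 and 4. The values were 65.4, 29.4, 36.5 and 77.4 scaled reads in preovulatory 1 to 4. In preovulatory 2 and 3, 1 read counted as 14.7 and 36.5 scaled reads, so the 2.97 rested on too few reads to read a difference from. MiR-96, of the miR-183 cluster of sensory and epithelial cells, had 10 reads against 1 (ratio 7.79, counting interval 1.11 to 338, limma adjusted p = 0.315). MiR-1301 had 58.8 to 146 scaled reads in preovulatory vesicles, against 0, 0, 0 and 89.6 in postdeviation vesicles. Its log2 fold change of 4.80 ± 1.81 (limma adjusted p = 0.315) was 6.42 without postdeviation 4 and 1.93 with edgeR. MiR-34c, a p53-induced miRNA of multiciliated epithelium, had 16 reads against 2 (ratio 6.24, counting interval 1.47 to 55.9, limma adjusted p = 0.383). MiR-34a of the same family had 204, 0, 0 and 155 scaled reads against 43.2, 10.6, 0 and 0 (log2 1.49, and -2.25 without preovulatory 1 and 4). The remaining miRNAs at an unadjusted p under 0.05, named because they complete the 28, were miR-872 (28 reads against 10), miR-135b (10 against 1) and miR-326 (22 against 5).

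The rule left out 82 miRNAs with reads in 1 to 3 of the 8 libraries. Of these, 32 had reads in preovulatory libraries alone, 15 in postdeviation libraries alone and 35 in both. Among the 32, 11 had reads in both preovulatory 1 and 4 and in no other library. These were the deepest of the 8 libraries, with 105466 and 110062 reads, and the part of depth in these counts was not tested. The 27 just outside the rule, above 0 in 3 libraries, reached at most 327 scaled reads, and the 21 just inside, above 0 in 4, at most 261. No tested miRNA was at 0 throughout a stage. In 5 tested miRNAs all 4 preovulatory and at most 1 postdeviation library were above 0, and in 1 the reverse held. Among them were miR-15b, miR-96, miR-1301 and miR-493b. These met the rule through the stage where they were high, so their pattern of detection is no separate support for a difference. Those left out held under 0.3% of each library's reads, since the tested miRNAs held at least 99.7%.

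MiRNAs known to respond to LH in granulosa cells of mice did not pass the threshold. MiR-21 had 30344, 109323, 216068 and 27871 scaled reads in preovulatory vesicles, against 24882, 88832, 27966 and 147878 in postdeviation vesicles. Both stages held a pair of low and a pair of high libraries (log2 0.28 ± 0.75, limma adjusted p = 0.903). Without preovulatory 1 and 4 the log2 fold change was 1.48 with an adjusted p of 0.474. MiR-132 had 29 reads in 3 preovulatory libraries against 2 reads in 2 postdeviation libraries, or 11.3 times as many with the deposited library factors (counting interval of the ratio 2.86 to 97.7, adjusted p in limma 0.50) and 12.3 times at equal total reads. Its fitted log2 fold change was 2.60, and 0.57 without preovulatory 1 and 4. MiR-212, its neighbour in the genome, had 14.4 scaled reads in postdeviation 1 and 0 in the other libraries, and was not tested.

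The 4 tested granulosa regulators were all fitted lower, with a median of -1.14, but edgeR fitted 2 of 4 higher with a median of 0.04. Beside the counts of this list and the next stand 128 of 219 tested miRNAs fitted higher and 91 lower. MiR-378, which lowers aromatase in granulosa cells of pigs, had 3963, 9848, 9199 and 8847 scaled reads against 10980, 9161, 8861 and 9408 (log2 -0.35 ± 0.28, limma adjusted p = 0.639). Preovulatory 1 alone was far below the rest, and the log2 fold change was -0.01 without preovulatory 1 and 4. MiR-376a, miR-383 and miR-224 rested on 12, 5 and 17 reads in preovulatory against 7, 3 and 12 in postdeviation libraries. Of the epithelial miR-200 family, 2 members were fitted higher and 3 lower (median -0.24, and 0.73 without preovulatory 1 and 4), and miR-200a had 425, 1499, 3103 and 479 against 921, 1883, 659 and 3029. Its log2 fold change was -0.47, and 0.66 without preovulatory 1 and 4.

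Of the 57 abundant miRNAs, 8 did not overlap between the stages, beside 19 of all 219 tested (8.68%). Each of the 8 is described above. Among the 10 most abundant, all but miR-192 and miR-215 overlapped. MiR-10a, from a HOX gene cluster, had 10450, 55455, 45119 and 19742 scaled reads in preovulatory vesicles, against 48598, 45807, 32891 and 46234 in postdeviation vesicles (log2 -0.68 ± 0.41, limma adjusted p = 0.466). Preovulatory 1 and 4 lay below all postdeviation libraries, and without them the log2 fold change was 0.22. MiR-10b, from another HOX cluster, had 34649 to 72357 against 40956 to 57909 (log2 0.00 ± 0.39, and 0.36 without preovulatory 1 and 4). MiR-423-5p had 25899, 50164, 45119 and 38639 against 43586 to 47937 (log2 -0.23 ± 0.26, and 0.07 without those libraries), and miR-143, of smooth muscle and theca, 9061 to 31029 against 6231 to 23476 (log2 0.04 ± 0.66). MiR-483, from an intron of IGF2, had 450 to 1014 against 430 to 1515 (log2 -0.45 ± 1.01).

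The smaller lists held few tested members, none past the threshold. Their counts stand beside 128 of 219 tested miRNAs fitted higher and 91 lower. The X-linked miR-424 cluster had 3 members fitted higher and 1 lower, with a median of 0.57 that was 0.00 after quantile normalization. The HOX locus miRNAs had 2 higher and 3 lower, with a median of -0.37 that turned to 0.22 without preovulatory 1 and 4. Both members of the miR-204 and miR-211 family were fitted lower (median -1.09), as were both of stratified epithelium (median -0.91). The miR-183 cluster had 2 higher and 1 lower (median 0.15), and the miR-181 family 1 of each, with a median of 0.13 that turned to -0.48 without preovulatory 1 and 4. The X-linked miR-506 family had 0 tested members of 4 listed.

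Markers of cells other than granulosa were compared as lists, none with a member past the threshold, and their part in the other results was not tested. Beside the counts of these lists stand 128 of 219 tested miRNAs fitted higher. The red cell list summed to between 7643 and 73092 in preovulatory and between 9081 and 23369 in postdeviation libraries. MiR-486-5p had 7639, 66743, 17266 and 7207 against 8634, 21719, 13473 and 14874, so its high value was that of preovulatory 2 and preovulatory 1 and 4 were its lowest libraries (log2 0.19 ± 0.52, limma adjusted p = 0.903). Its log2 fold change without these libraries was 1.29 (limma unadjusted p = 0.018, adjusted p = 0.474), and the median of the 3 tested red cell members was 1.55, beside 0.40 with them. Red cell miR-144 was listed at 0 in all 8 libraries. The leukocyte list of 10 markers, 9 of them tested, summed to 3497 to 8250 against 5037 to 7096, with 7 of 9 fitted higher (median 0.33, and -0.06 after quantile normalization), and miR-146a had 1773 to 4198 against 3311 to 4928. MiR-155, induced in activated leukocytes, had 163, 485, 1497 and 338 against 130, 370, 65.9 and 269 (log2 1.38, limma adjusted p = 0.413), and 2.31 without preovulatory 1 and 4. The 8 endothelial and stromal markers summed to 8671 to 11920 against 4878 to 8530, sums that did not overlap, and 6 were fitted higher. No single member separated the stages or was at an unadjusted p under 0.05. The 8 markers had a median of 0.68, and of 0.20 after quantile normalization, which fitted 4 of them higher. Their miR-126-3p had 2198, 6805, 2738 and 1950 against 1194, 3798, 1614 and 3118 (log2 0.45 ± 0.47, limma adjusted p = 0.740), and -0.16 after quantile normalization. The striated muscle list summed to 1570 to 16828 against 1555 to 5412, and its highest value was miR-1 in preovulatory 3 (14821, against 528 to 1587 in the other preovulatory and 494 to 4247 in postdeviation libraries). The median log2 fold change of its 4 tested members was -0.26, and 0.37 without preovulatory 1 and 4. The heart miRNAs miR-208a and miR-208b were listed at 0.

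Most members of the neural and endocrine list were highest in preovulatory 1 and 4. The sum of the list was between 19489 and 115199 in preovulatory and between 24829 and 42841 in postdeviation libraries. Of its 5 tested members, 4 were fitted higher with a median of 1.44, beside 128 of 219 over all tested miRNAs. MiR-218 had a log2 fold change of 2.52 ± 1.55 (limma adjusted p = 0.466) and miR-7 of 1.44 ± 1.12 (adjusted p = 0.633). MiR-9a, a brain miRNA, had 16242, 176, 256 and 11303 scaled reads in preovulatory vesicles, against 9383, 21.2, 9750 and 215 in postdeviation vesicles (log2 1.06 ± 2.04), so that postdeviation 1 and 3 were high as well. Without preovulatory 1 and 4 these log2 fold changes were -0.76, -0.77 and -1.93, and the median of the list was -0.76 with 1 of 5 fitted higher. MiR-128, also enriched in brain, had 14845 to 21452 against 16470 to 24173 (log2 -0.13 ± 0.30) and preovulatory 1 was its lowest library.

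Some scarce miRNAs, among them brain miRNAs, followed the same libraries. MiR-124, a miRNA of neurons, had 139, 0, 0 and 91.5 scaled reads in preovulatory 1 to 4 and 16.5 in postdeviation 3 alone. MiR-137 had 286, 0, 0 and 232, and 115 in postdeviation 1 alone. MiR-490-3p, just outside the rule, had 294, 14.7, 0 and 239 in preovulatory libraries and 0 in all of postdeviation. A further 11 of the 82 miRNAs left out by the rule had reads in preovulatory 1 and 4 and in no other library of these stages. They rested on few reads, from 2 for miR-138 to 11 for miR-371-5p, in the 2 deepest libraries. Outside these stages, miR-218 reached at most 5447 in the other 12 libraries of the study, below preovulatory 1 and 4. MiR-7 was at 33479 in impending ovulation 3 and miR-9a at 28044 in impending ovulation 2, above both preovulatory 1 and 4. Of the 35 miRNAs with both libraries above the other 6, 16 had a higher value than the lower of the pair in at least 1 library of the other stages.

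Libraries 1 and 4 were also low together. Epithelial miR-205 had 40.9, 1117, 1752 and 84.5 scaled reads in preovulatory vesicles, against 317, 666, 231 and 1685 in postdeviation vesicles (log2 -0.89, limma adjusted p = 0.783), and 1.38 without preovulatory 1 and 4. Of the 16 miRNAs with both libraries below the other 6, 13 had a mean of at least 1000 scaled reads, among them miR-22, miR-24, miR-27a, miR-10a, miR-378 and miR-486-5p. These libraries had the most reads of the 8.

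**Figure D4:**
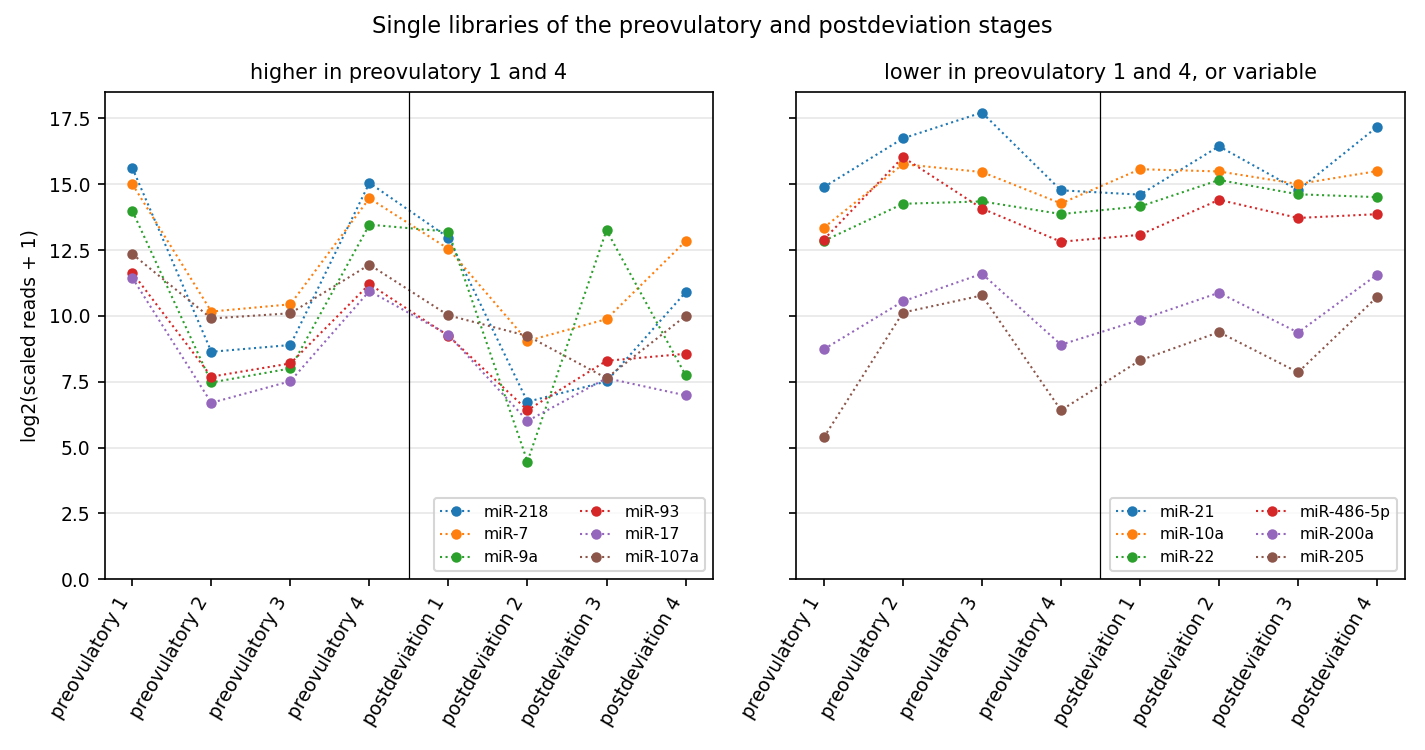
Log2(scaled reads + 1) of 6 miRNAs high in preovulatory 1 and 4 (left) and of 6 others (right) in each of the 8 libraries, with preovulatory libraries to the left of the vertical line and postdeviation libraries to the right; dotted lines only join the points of a miRNA. MiR-218 and miR-7 peak in preovulatory 1 and 4 (50254 and 33875 scaled reads of miR-218), while miR-10a and miR-205 dip there and miR-21 differs between libraries of both stages.

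The spread between libraries of a stage was of like size in both. The SD of the log2 values was larger in preovulatory than in postdeviation libraries for 103 of 219 miRNAs. Over the 131 miRNAs above 0 in all 8 libraries, the median SD was 0.62 in preovulatory and 0.71 in postdeviation libraries.

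Over all 5 stages, in the order predeviation, deviation, postdeviation, preovulatory and impending ovulation, the mean levels of miR-192 were 29890, 57726, 92666, 51373 and 81230 scaled reads. Those of miR-215 were 12011, 23578, 38287, 18944 and 27490, those of miR-22 were 6838, 13851, 25804, 15669 and 19755, and those of miR-27a were 7178, 12916, 13579, 8811 and 12150. In these 4 miRNAs the preovulatory mean lay below both of its neighbours, but the mean of preovulatory 2 and 3 alone was 20185 for miR-22, above that of impending ovulation. MiR-101 averaged 2192, 1618, 1047, 2841 and 1052, miR-148b-3p 1862, 1338, 1130, 2181 and 1345, miR-98 173, 147, 135, 409 and 264, and miR-107a 1126, 591, 715, 2799 and 1147. In these the preovulatory mean was the highest of the 5. For preovulatory 2 and 3 alone the means were 2426 for miR-101 and 444 for miR-98, still the highest, but 1669 for miR-148b-3p and 1025 for miR-107a, both below predeviation, and for miR-107a also below impending ovulation. Comparisons of preovulatory with each neighbour share the preovulatory libraries, so the values stand side by side and do not support each other. From preovulatory to impending ovulation the log2 fold change (impending ovulation minus preovulatory) was -1.50 for miR-101 (limma adjusted p = 0.164), 0.68 for miR-192 (0.397) and 0.57 for miR-215 (0.488), and limma called 0 of the 219 miRNAs.

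**Figure D5:**
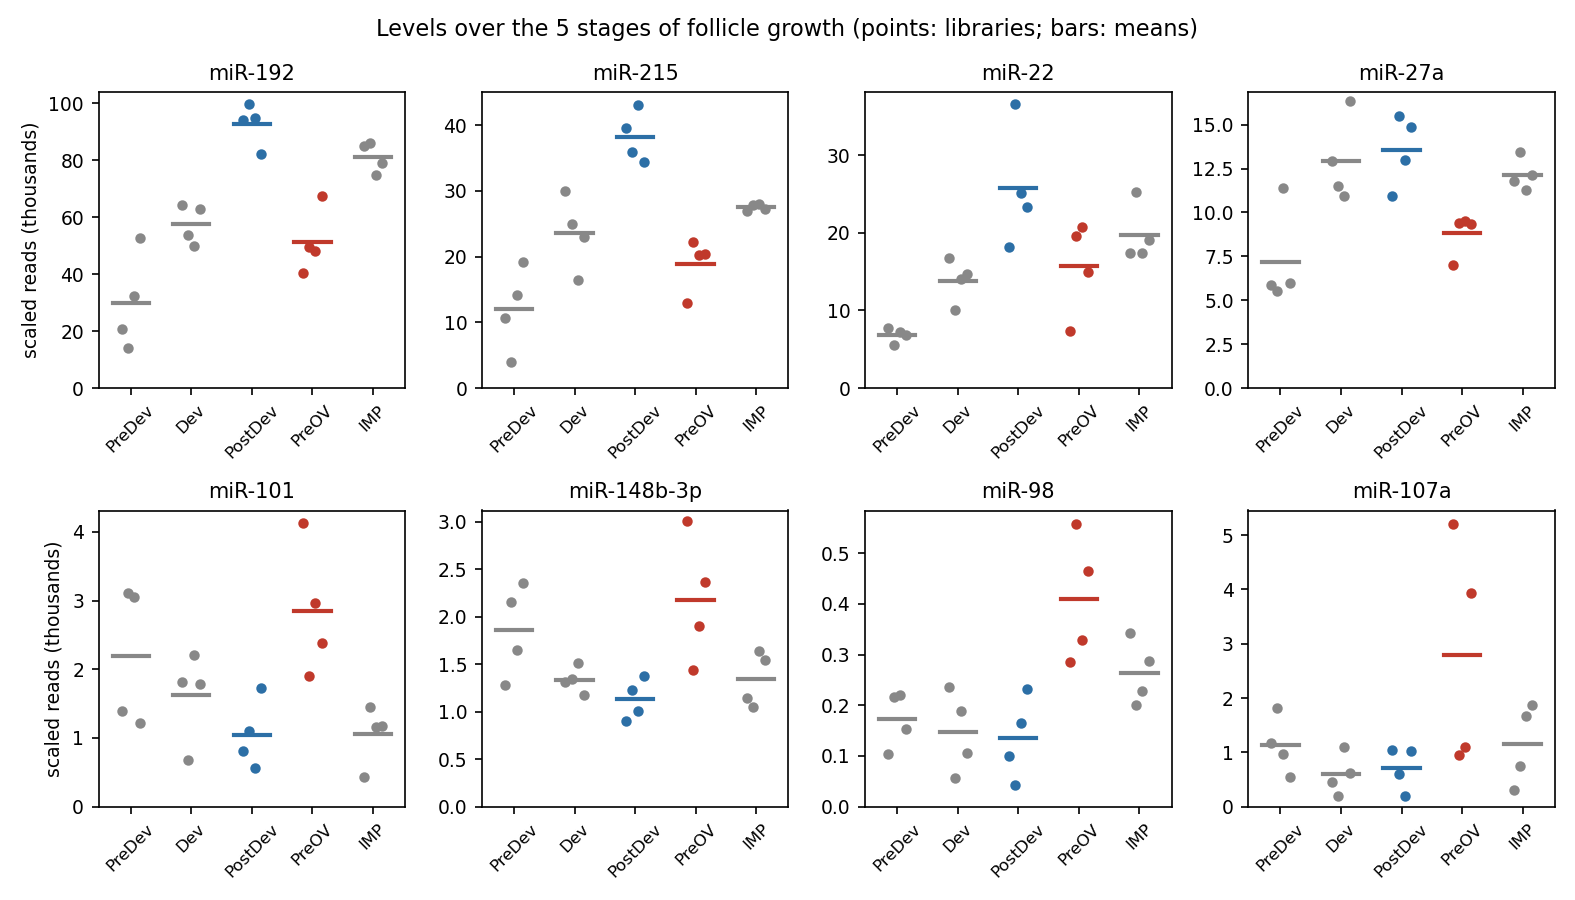
Scaled reads of 4 miRNAs fitted lower (top) and 4 fitted higher (bottom) in preovulatory than in postdeviation vesicles, in the order predeviation (PreDev), deviation (Dev), postdeviation (PostDev, blue), preovulatory (PreOV, red) and impending ovulation (IMP), with a point per library and bars for the means of 4. The preovulatory mean of miR-192, 51373, lies below the postdeviation mean of 92666 and the impending ovulation mean of 81230, and that of miR-101, 2841, is the highest of the 5 stages.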

How the data were processed

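Small RNA of follicular fluid vesicles was sequenced after TruSeq small RNA library preparation, per the labels' protocols. The submitters' processing notes name bcl2fastq, Bowtie2 2.2.2, DESeq2 and the horse build EquCab3.0, without a role. The table deposited by the authors, headed CPM, holds a scaled read signal: columns summed to 774632 to 1778185, and the smallest value above 0 of a column divided 100% of its values without a remainder (tolerance 1e-06). That division gave whole reads. The origin of the factors is not given in the sources used.

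Tests used limma 3.58.1 (R 4.3.3), fitted to log2(value + 1) with a trend of the variance on the mean level, all 20 libraries in 1 fit, a mean per stage, two-sided p-values and Benjamini-Hochberg adjustment over 219 miRNAs. EdgeR 4.0.16 (quasi-likelihood) and DESeq2 1.42.0 were run on the recovered reads, and DESeq2 left 89 adjusted p-values undefined. The fits were tested on simulated data. Counting intervals are 95% and exact, and cover counting error only, since reads carry no molecular identifiers. Exact permutation tests used 70 arrangements of 8 libraries.

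The members and the lists were chosen with earlier results of these data known. Named miRNAs were the 10 smallest p in each direction, the 10 most abundant, and by smallest p up to 4 members of a list with a member at an unadjusted p under 0.05, 1 of other lists and 4 of the neural and endocrine list, whose members stood apart in some libraries, with other arms. A few more were named after their values were seen. The libraries are not tied to mares in the labels, and 20 libraries came from 19 mares, so p-values speak of the spread among libraries, which may share mares. Same-numbered libraries of the stages deviated together for numbers 1 and 2 but not for 3 and 4 (correlations 0.42, 0.23, -0.05 and -0.18). Numbers were not used as pairs in the main fit. The labels give no batch.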

Additional observations from a re-analysis of the deposited data

Results flagged for a closer look

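Of 150 groups of 4 libraries of a named miRNA or a library measure, 16 held a library far from the other 3 by Dixon's criterion. For normally distributed values chance gives about 1 in 20. A miRNA with reads in 1 library and 0 in the other 3 always meets the criterion, so the 16 cannot be set against that rate. Of the 16, 4 were in preovulatory 1, and no other library had more than 3.

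Among abundant miRNAs of preovulatory vesicles, miR-148a was at 188836 scaled reads in preovulatory 1 against 137680 to 145935 in the other preovulatory libraries. In the same library miR-27a was at 7034 against 9340 to 9491, and miR-378 at 3963 against 8847 to 9848. Preovulatory 2 was high in red cell miR-486-5p, at 66743 against 7207 to 17266, and in endothelial miR-126-3p, at 6805 against 1950 to 2738. Preovulatory 3 was high in muscle miR-1, at 14821 against 528 to 1587. The scarce miR-34c was at 110 in preovulatory 3 against 32.7 to 44.1. That value is 3 reads in the shallowest library, where 1 read counts as 36.5 scaled reads, so it reflects the library's factor. In postdeviation vesicles, miR-148a was at 292428 in postdeviation 3 against 167125 to 185728 in the others. Postdeviation 2 held 89957 reads, against 55118 to 58485 in the others.

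The other cases were scarce miRNAs with reads in 1 library and 0 in the other 3 of the stage. They were miR-493b in preovulatory 4 (14.1 scaled reads), miR-3959 in preovulatory 1 (16.3), miR-96 in postdeviation 1 (14.4), miR-497 in postdeviation 2 (10.6), miR-15b in postdeviation 3 (16.5), miR-29c in postdeviation 3 (32.9) and miR-1301 in postdeviation 4 (89.6).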

How the results depend on the processing

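No miRNA passed the threshold in any of the 24 alternative settings, and the smallest adjusted p of any of the 71 named miRNAs was 0.0596, for miR-493b after quantile normalization. The number at an unadjusted p under 0.05, 28, was 15 without postdeviation 3, 17 without preovulatory 1, 36 without preovulatory 2 or postdeviation 4, and 18 without preovulatory 1 and 4 together. With the replicate block the count past the threshold was 0, with 23 at an unadjusted p under 0.05. The same numbers did not pair all libraries, since only 2 of the 4 preovulatory libraries correlated best with their own number. Of the 71 named miRNAs, 21 had the other sign in a setting. None of the 20 miRNAs with the smallest p in a direction did. Without preovulatory 1 and 4 together, a setting added after the data were seen, the log2 fold change turned to -0.13 for miR-99a, 0.069 for miR-423-5p, 0.22 for miR-10a, -2.25 for miR-34a, 0.66 for miR-200a, -0.19 for miR-93, -0.37 for miR-17, -0.51 for miR-30c, -0.76 for miR-218, -0.77 for miR-7, -1.93 for miR-9a and 1.38 for miR-205. Values near 0 turned with the scaling or the tool: miR-10b to -0.11 with median-of-ratios rescaling, -0.17 with edgeR and -0.085 with DESeq2; miR-183 to -0.011 with quantile normalization, -0.19 with edgeR and -0.085 with DESeq2; miR-143 to -0.038, -0.073, -0.15 and -0.029 with quantile normalization, median-of-ratios rescaling, edgeR and DESeq2. MiR-450b-5p turned to -0.00022 with quantile normalization, -0.63 with edgeR, -0.54 with DESeq2 and -0.32 with edgeR on the deposited scale, miR-30c to -0.26 with quantile normalization and -0.030 with median-of-ratios rescaling, and miR-126-3p to -0.16 with quantile normalization. Without the libraries under 40000 reads, miR-21 was at -0.28, miR-10b at -0.034, miR-183 at -0.045, miR-143 at -0.33 and miR-1 at -0.36. Over the fits that leave out 1 library, the ranges were -71595 to 7384 for the difference of the sum of values, and in log2 -0.36 to 1.30 for miR-1, -0.20 to 0.16 for miR-10b, -0.36 to 0.28 for miR-143, -1.65 to 0.78 for miR-148b-5p, -0.12 to 0.40 for miR-183, -1.76 to 0.040 for miR-205, -0.28 to 0.76 for miR-21, -0.15 to 0.44 for miR-30c, -0.83 to 1.75 for miR-450b-5p, -0.50 to 0.57 for miR-486-5p, -0.037 to 0.46 for miR-99a and -0.67 to 2.26 for miR-9a. The causes were not tested.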
